A study of Homo sapiens with 2 samples.

Results

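The miR-378 family and its close relative miR-422a were followed in small RNAs captured from MDA231 cells, a human triple-negative breast cancer line (MDA-MB-231). The 10 members were taken by name from the 2588 mature miRNA names of the deposited files: hsa-miR-378a-3p, hsa-miR-378a-5p, hsa-miR-378c, hsa-miR-378d, hsa-miR-378e, hsa-miR-378f, hsa-miR-378g, hsa-miR-378h, hsa-miR-378i and hsa-miR-422a, written below without the species prefix. Lysate of these parental cells was incubated with amylose resin, and the RNA released with maltose was sequenced as miRNA. In the bait library the resin carried the long non-coding RNA MACC1-AS1, made in vitro with T7 RNA polymerase, tagged with MS2 hairpins and tethered by the MS2 coat protein fused to maltose-binding protein. In the no-bait library the labels give no RNA substrate, so the control lacked an unrelated RNA or MS2 hairpins alone, and effects of MACC1-AS1, of the tag and of RNA on the resin cannot be told apart. Each group was 1 library, with 1047269 counts for the bait and 269716 for the no-bait resin. No difference below has a replicate check, no p-value was computed, and every interval is an exact 95% interval that covers counting error only.

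miRNAs are short RNAs that guide Argonaute proteins to partly complementary RNAs, mainly through the seed, bases 2 to 8 from the 5′ end. miR-378a is processed from an intron of PPARGC1B, which encodes the transcriptional coactivator PGC-1β of mitochondrial and lipid metabolism, and it is abundant in muscle and brown fat. Both arms of its hairpin are known as regulators: the 3p arm in muscle and energy metabolism, and the 5p arm in breast cancer cells, where it has been linked to a shift towards glycolysis. The other members resemble the 3p arm.

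The sequences show which members could share reads and which share a seed. RefSeq (GRCh38.p14) held the mature sequence of 8 of the 10 members, and those of miR-378d and miR-378e are named only. In the MIR378A hairpin, at chr5:149732825-149732890 on the plus strand, the capitals mark the 5p arm and then the 3p arm.
MIR378A hairpin: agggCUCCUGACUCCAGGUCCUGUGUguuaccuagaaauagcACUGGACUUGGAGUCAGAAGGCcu
In the mature sequences below, 5′ to 3′, the capitals mark the seed.
miR-378a-3p: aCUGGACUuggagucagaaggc
miR-378c: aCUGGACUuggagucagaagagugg
miR-378i: aCUGGACUaggagucagaagg
miR-378f: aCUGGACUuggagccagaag
miR-378h: aCUGGACUuggugucagaugg
miR-422a: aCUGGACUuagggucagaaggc
miR-378g: aCUGGGCUuggagucagaag
miR-378a-5p: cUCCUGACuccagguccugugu
The seed CUGGACU stood in 6 of the 8 members with a sequence. Whether miR-378d and miR-378e carry it or share first bases with miR-378a-3p was not tested. Among the 2281 names of the files with a sequence in the table, 7 had this seed, and the only one outside the members was miR-378b. Positions in the substitutions that follow count from 1 at the 5′ end of miR-378a-3p, whose base comes first. miR-378i differed from miR-378a-3p over 21 bases by U9A, miR-378f over 20 bases by U14C, miR-378g by A6G inside the seed, miR-378h by A12U and A19U, and miR-422a by G10A and A12G. miR-378c had the same first 20 bases as miR-378a-3p and a longer, different end, so a read of 20 bases or fewer cannot be assigned to either. The sources used here do not say how such reads were treated, and the values of single 3p-type members are therefore uncertain. Some closely named miRNAs had equal counts, such as miR-199a-3p and miR-199b-3p, each with 176 with bait and 92 without. miR-365a-3p and miR-365b-3p each had 42 and 0. Whether a shared read was counted in full under each name was not tested. If so, the sum of the members would hold it repeatedly.

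The family is scattered over the genome. In GENCODE version 29 (GRCh38), MIR378A lay in an intron of PPARGC1B on the same strand. MIR378E lay in an intron of DOCK2 on the same chromosome 5 (170028488 to 170028566, plus strand), and MIR378D1, a hairpin annotated for miR-378d, in an intron of C4orf50 on chromosome 4 (5923275 to 5923328, minus strand). MIR378I overlapped a UTR exon of TNFRSF13C on chromosome 22 (41923222 to 41923297, minus strand). MIR378C on chromosome 10 (130962588 to 130962668, minus strand) and MIR422A on chromosome 15 (63870930 to 63871019, minus strand) overlapped no other annotated gene. The sources used here name no build for the authors' own mapping.

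miR-378a-3p, the dominant member, had 769 counts with bait, a level of 734 RPM (reads per 1000000 miRNA reads of the library, 95% interval 683 to 788), and 254 counts without bait, or 942 RPM (830 to 1065). It was the 52nd most abundant name with bait and the 48th without. Its level was somewhat lower with bait, and the intervals of the libraries did not overlap. The ratio of bait over no bait was 0.780 (0.676 to 0.902), a log2 value of -0.36. The direction depended on the scaling. DESeq2 size factors gave a ratio of 1.04 (0.905 to 1.21) and TMM factors 0.868 (0.752 to 1.004). Totals without the 5 most abundant miRNAs gave 0.713 (0.618 to 0.825). Under each scaling it stayed between the thresholds used here, which applied to miRNAs with at least 30 counts over both libraries: "higher" meant a ratio of 2 or more and "lower" a ratio of 0.5 or less, with an interval that excludes 1.

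**Figure D1:**
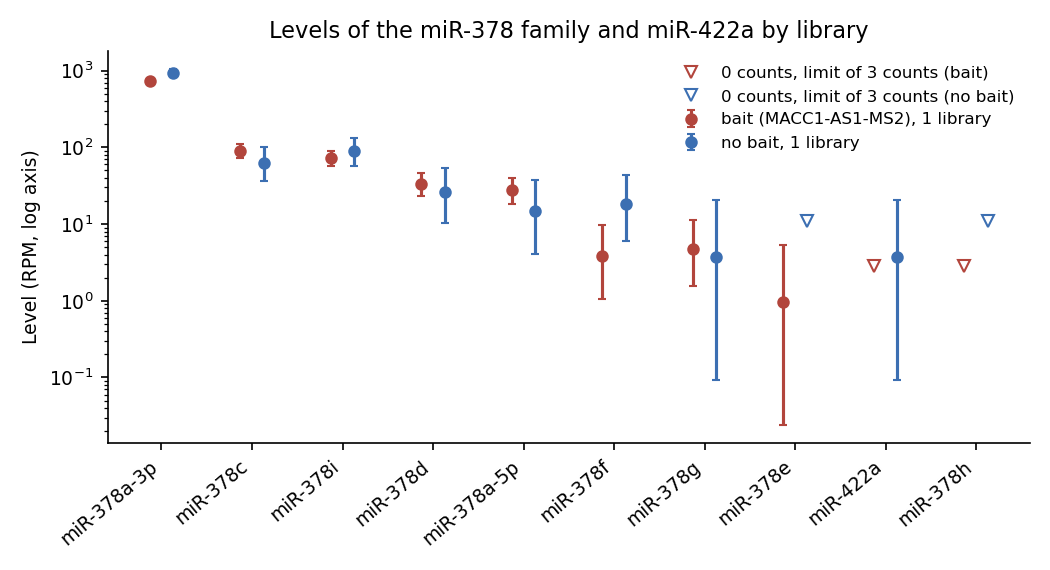
Level of each member in RPM on a log axis, by library, with exact 95% counting intervals; open triangles mark 0 counts, drawn at the level of 3 counts (2.86 RPM with bait and 11.1 RPM without). miR-378a-3p stands highest in both libraries, at 734 and 942 RPM, and no other member exceeds 89.8 RPM.

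miR-378c, which shares its first 20 bases with miR-378a-3p, had 94 counts with bait (89.8 RPM, 72.5 to 110) and 17 without (63.0 RPM, 36.7 to 101). Its ratio was 1.42 (0.844 to 2.55). miR-378i had 75 counts with bait (71.6 RPM, 56.3 to 89.8) and 24 without (89.0 RPM, 57.0 to 132), a ratio of 0.805 (0.502 to 1.33), which became 1.08 with DESeq2 size factors. The order of these members was thus miR-378c above miR-378i with bait and the reverse without, but in each library their intervals overlapped. miR-378d had 35 counts with bait (33.4 RPM) and 7 without (26.0 RPM), a ratio of 1.29 (0.564 to 3.44). All 3 intervals included 1, so no difference was detectable at this depth for miR-378c, miR-378i or miR-378d with library totals. With DESeq2 size factors the ratio of miR-378c was 1.91 and its interval excluded 1 (1.13 to 3.41), still below the threshold of 2.

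miR-378a-5p, the opposite arm of the miR-378a hairpin, had 29 counts with bait (27.7 RPM, 18.5 to 39.8) and 4 without (14.8 RPM, 4.04 to 38.0). Its ratio of 1.87 (0.656 to 7.31) was the highest of the tested members. It passed 2 with TMM factors, at 2.08 (0.730 to 8.13), and with DESeq2 size factors, at 2.50 (0.878 to 9.79). Totals without the 5 most abundant miRNAs gave 1.71 (0.600 to 6.69). Each of these intervals still included 1. With 33 counts in all, a higher ratio had to reach 3.99 before its interval excluded 1, so a 2-fold difference could not have been resolved. For comparison, miR-378a-3p needed a ratio of 1.17. Set against miR-378a-3p, there were 3.77 counts of the 5p arm per 100 of the 3p arm with bait and 1.57 without. This odds ratio, in which the scaling between libraries cancels, was 2.39 (0.829 to 9.46). A shift between the arms was therefore not detectable, and the interval leaves room for a large one.

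**Figure D2:**
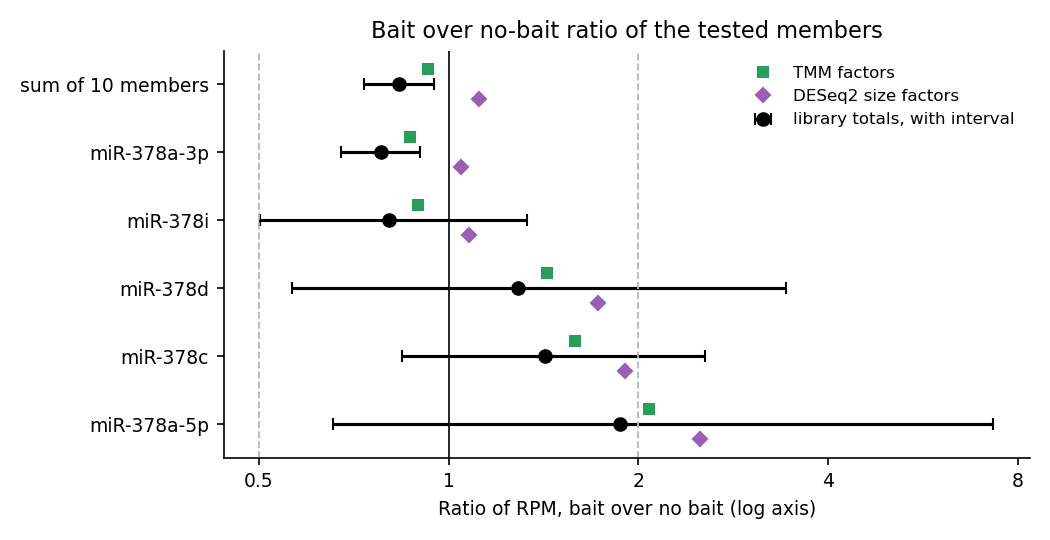
Ratio of bait over no-bait RPM on a log axis for the 5 tested members and the sum of all 10, with exact 95% counting intervals (black) and the same ratio under 2 other scalings (squares and diamonds); dashed lines mark ratios of 0.5 and 2. Every black point lies between the dashed lines, and only the intervals of the sum and of miR-378a-3p exclude 1.

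The remaining members were at or near the limit of detection. miR-378f had 4 counts with bait (3.82 RPM) and 5 without (18.5 RPM). Its ratio of 0.206 (0.0409 to 0.957) rested on 9 counts, below the minimum for a call, and it would be called lower without a count filter, as would 14.0% of all miRNAs with a count. miR-378g, whose seed differs from that of miR-378a-3p, had 5 counts and 1 count, a ratio of 1.29 (0.144 to 60.9). miR-378e had 1 count with bait and 0 without, and miR-422a had 0 with bait and 1 without. miR-378h had 0 in both libraries. By the floor of 3 counts used here, a count of 0 allows up to 2.86 RPM with bait and 11.1 RPM without, while the exact 95% interval of a 0 reaches 3.52 and 13.7 RPM. No fold is given for these 3. miR-378b and miR-378j, which carry the family name but are not among the 10, also had 0 counts in both libraries.

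In all, 8 members had a count with bait, 8 without, and 7 in both. Of the 10, 5 passed the minimum of 30 counts and 5 did not. None of the 5 tested members was called higher and none lower, while over all 231 tested miRNAs 39.4% were called higher and 26.8% lower, 66.2% in either direction. Only the interval of miR-378a-3p excluded 1 among the 5, against 190 of the 231. Ratios were above 1 for 3 members and below 1 for 2, from a log2 value of -0.36 to 0.90. Their median was 0.36, and that of all tested miRNAs was 0.55, with quartiles of -1.09 and 1.86. Differences from that median do not depend on the scaling, and miR-378a-3p lay at -0.90, miR-378i at -0.86, miR-378d at -0.18, miR-378c at -0.04 and miR-378a-5p at 0.36. Of the tested miRNAs, 84 had a lower ratio than miR-378a-3p, and 21 had a log2 ratio closer to 0. The members share a source in each library and at least the 3p-type ones can share reads, so they are not independent, and 4 of the 5 had at most 111 counts.

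**Figure D3:**
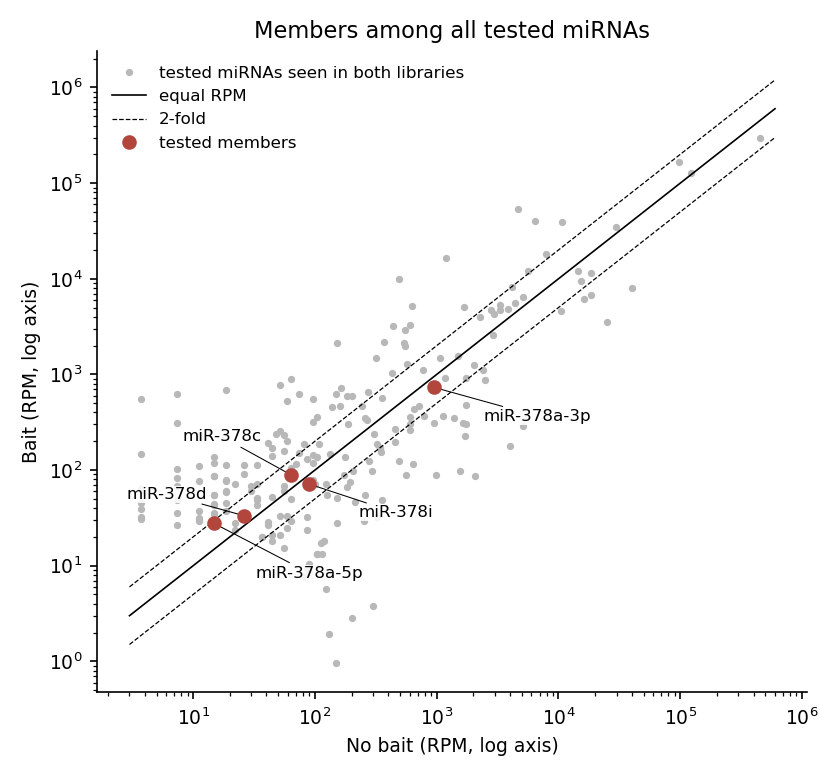
Level with bait against level without bait in RPM, both on log axes, for the 223 tested miRNAs with counts in both libraries (grey) and the 5 tested members (red); the solid line is equal RPM and the dashed lines 2-fold. The members lie between the dashed lines, and many other miRNAs of like abundance lie outside them.

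Summed over the 10 members, the family held 1012 counts with bait, 0.0966% of the library (0.0908% to 0.103%), and 313 without, 0.116% (0.104% to 0.130%). A read counted under several names would enter these sums under each of them. The ratio of the sums was 0.833 (0.733 to 0.948), but 1.12 (0.982 to 1.27) with DESeq2 size factors. With totals without the 5 most abundant miRNAs it was 0.762 (0.670 to 0.867). Most of the summed counts were those of miR-378a-3p. Without it the other 9 members had 243 and 59 counts, 232 and 219 RPM, and a ratio of 1.06 (0.795 to 1.43). That interval also holds 0.833, so the other members were not shown to differ from the sum.

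Within the family, miR-378a-3p took 76.0% of the counts with bait (73.2% to 78.6%) and 81.2% without (76.4% to 85.3%). These intervals overlap. miR-378c took 9.29% (7.57% to 11.2%) with bait and 5.43% (3.20% to 8.55%) without. Per 100 counts of miR-378a-3p there were 12.2 of miR-378c with bait and 6.69 without, an odds ratio of 1.83 (1.06 to 3.33). This was the only one of the odds ratios against miR-378a-3p whose interval excluded 1, among 8 intervals computed. It concerns a pair that shares its first 20 bases. Whether the treatment of shared reads had a part in it was not tested. miR-378i, which differs by 1 base in the middle, held nearly the same proportion in both libraries, 9.75 and 9.45 per 100 counts of miR-378a-3p, with an odds ratio of 1.03 (0.628 to 1.75). miR-422a, which differs from miR-378a-3p at 2 positions, had 0 and 0.394 per 100.

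**Figure D4:**
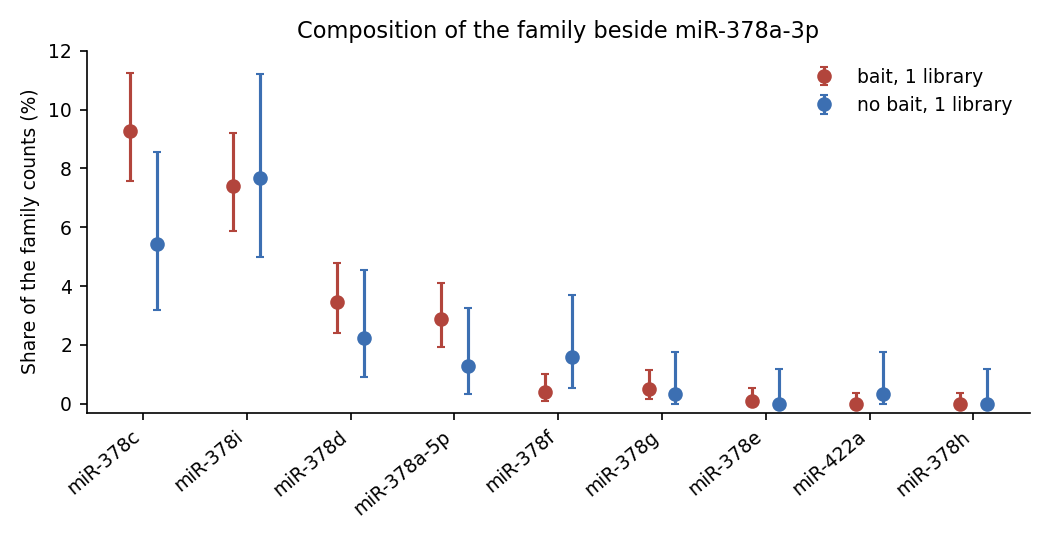
Share of the family counts held by each member other than miR-378a-3p, in percent, by library, with exact 95% counting intervals. The intervals of each member overlap between the libraries, with miR-378c at 9.29% with bait and 5.43% without and miR-378i at 7.41% and 7.67%.

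The miRNA whose levels in the libraries were nearest to those of miR-378a-3p was miR-106b-3p, from a hairpin in MCM7, with 928 RPM with bait and 1179 RPM without and a ratio of 0.787 (0.693 to 0.896). The distance, over the log2 RPM of both libraries, was 0.47. The next were miR-30e-3p at 0.65 (ratio 1.43), miR-625-3p at 0.76 (0.663), let-7e-5p at 0.92 (0.661) and miR-221-5p at 0.94 (0.532). Over 2 libraries this likeness describes only abundance and ratio.

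Other intronic miRNAs of metabolic host genes, the miR-33 and miR-103/107 families, served as a companion list. Of 8 names, 5 had counts and 2 were tested. miR-103a-3p, from introns of pantothenate kinase genes, had 1335 and 153 counts and was called higher at 2.25-fold (1.90 to 2.67). miR-107, which is nearly identical to it, had 55 and 12 counts and a ratio of 1.18 (0.625 to 2.42). Muscle miRNAs were counted because miR-378a is abundant in muscle. Of 9 names, 6 had counts, and miR-486-5p, which blood cells also hold, was the one tested. It had 386 counts with bait and 214 without and was called lower with library totals, at a ratio of 0.465 (0.392 to 0.552), a call lost with TMM factors (0.517) and with DESeq2 size factors (0.622). The other 8 names together had 22 counts with bait and 13 without, led by miR-206 with 14 and 9.

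The annotated MACC1-AS1 transcript (ENST00000439285.1, 639 bases) was searched for the reverse complement of each seed on both strands. AGTCCAG, the match to CUGGACU, was found 0 times, as were GTCAGGA for miR-378a-5p and AGCCCAG for miR-378g. The motifs are of equal length and none is contained in another. Of 3740 lincRNA and antisense transcripts within 10% of this length, 5.64% held AGTCCAG, 6.15% GTCAGGA and 10.9% AGCCCAG on the sense strand. These letters being missing from the annotated transcript says nothing of other pairing, and the isoform and tag on the resin are not given in the labels.

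In the authors' deposited table, the fold change of miR-378a-3p was -0.36 on the log2 scale, the value found here. The same table lists miR-422a at -8.54 and miR-378e at 6.57, the widest values of the family. Each rests on 1 count in 1 library and 0 in the other: both values are met when 0 RPM is replaced by 0.01 RPM. These counts lie under the floor of 3 counts, so no fold was computed for them here.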

How the data were processed

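Small RNA libraries from 1 bait and 1 no-bait pulldown were analysed. The authors deposited whole-number counts per mature miRNA name and an RPM value, which equalled the count over the column total to within 0.00994 RPM. The submitters' processing notes name BWA. No version, reference, trimming or treatment of shared reads is stated in the sources used here. The authors also deposited a log2 fold change per miRNA.

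Counts were divided by each library's total. Ratios have exact conditional binomial 95% intervals, levels and shares Clopper-Pearson intervals, and odds ratios exact conditional intervals (scipy 1.17.1). The sources used here name no molecular identifiers, and intervals and floors cover counting error only. The no-bait library was 3.88-fold shallower. Calls were made over all miRNAs with at least 30 counts. Alternatives were edgeR 4.0.16 TMM factors, DESeq2 1.42.0 size factors, totals without the 5 most abundant miRNAs, other count minimums, a stricter bound, the deposited RPM and other sums. Members, lists and rules were chosen with earlier results of these data known. All 10 members were described, with entries sharing the seed or name, the 5 nearest tested miRNAs in both libraries, and the leading members of 2 lists.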

Additional observations from a re-analysis of the deposited data

How the results depend on the processing

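In none of the 27 alternative ratios of a tested member or of the sum was a member called. Those from the deposited RPM repeat the same counts and totals, and without an interval they could not have been called. The summed ratio of 0.833 was 1.12 with DESeq2 size factors and 1.06 without miR-378a-3p, and the ratio of miR-378a-3p was 1.04 with DESeq2 size factors, which follows from the changed factor or sum. Summing miR-378a-3p with miR-378c, chosen after the data were seen, gave 0.820. Without a count filter 1 member, miR-378f, was called lower, where 100 of 715 miRNAs were lower. At a minimum of 100 counts 2 members were tested, beside 59 higher and 37 lower miRNAs of 146. DESeq2 size factors put 114 miRNAs higher and 44 lower, against 91 and 62 with library totals. The tested miRNAs' median log2 ratio of 0.55 became 0.70 with TMM, 0.97 with DESeq2 size factors, 0.42 with totals without the 5 most abundant, 0.31 at 10 counts and -0.47 without a filter, over the 475 names with a ratio. Of the alternatives to the main results, 32 stayed within the counting interval, within 1.5 times for counts or within 0.1 for the median, and 11 did not. No paired analysis was possible because each group held 1 library. Depth limits the tested members other than miR-378a-3p: with 33 to 111 counts in all, the smallest higher ratio whose interval excludes 1 ran from 1.78 for miR-378c to 3.99 for miR-378a-5p.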
